A study of Sus scrofa with 14 samples.

Results

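The immediate early factors FOS, JUN and MYC were measured in mucosal scrapings of pig jejunum after 6 h of perfusion with digested onion or with a digested saline control. The 3 genes were represented by 6 probes of 43603 probes on the array, and by 3 of the 3020 genes that could be named. A probe was taken as a member when its RefSeq accession belonged to one of the 3 genes or when a published probe list of these arrays gave it that name. The first way gave 1 probe of FOS (A_72_P441284), 1 probe of JUN (A_72_P178031) and 3 probes of MYC (A_72_P165831, A_72_P557580 and A_72_P592239). The second way gave a further probe of FOS (A_72_P596714), annotated on the array with an Ensembl transcript. The list was selected on differences between onion and control in these same pigs, so the onion values of A_72_P596714 are given as a description, and the test of FOS is read from A_72_P441284. Each of the 6 probes exceeded its background clearly on every one of the 14 arrays.

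The samples came from 7 male piglets of 5 weeks and 8.2 kg, all under anaesthesia, in which pairs of small intestinal segments at 31 to 58% of the length of the small intestine were filled with 20 ml and perfused in the living animal. Pigs 1, 2 and 4 each gave a segment with yellow onion digest (YOd) and a segment with control digest (Sd). Pigs 5, 6, 7 and 8 each gave a segment with white onion digest (WOd) and a segment with Sd. The onion digests were diluted in peptone and Sd, to a greater degree, in a saline solution. Onion, diluent and degree of dilution thus cannot be told apart. The type of onion cannot be told apart from the set of pigs that received it. No pig was sampled without surgery and perfusion, and a pig labelled 3 was not analysed here.

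FOS and JUN are subunits of the dimeric transcription factor AP-1, in which FOS needs a JUN family partner to bind DNA. MYC binds DNA together with its partner MAX and promotes cell growth and division. The genes of all 3 are transcribed within minutes after a stimulus such as a growth factor, stretch or injury, without new protein synthesis, and their RNAs are short-lived. In the intestine MYC is a target of the WNT signal that keeps crypt cells dividing, and FOS and JUN respond quickly to handling and ischaemia of the tissue.

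One array was hybridised per segment, and 50.6 to 70.7% of the probes were well above background. The summed level of 7 enterocyte markers, of 12 listed, ranged over the Sd segments from 613 to 1256 times the 75th percentile of the array, and that of 5 smooth muscle markers, of 10 listed, from 21.7 to 41.7, so markers of both the epithelium and the muscle were detected in the scrapings. In such mixed tissue, fewer cells of a type and less RNA per cell cannot be told apart. The 14 arrays lay on 5 slides. The Sd arrays of pigs 2 and 7 lay on a slide of their own that was scanned in another session than the remaining arrays, and these are the pigs whose 2 arrays did not share a slide. All levels below are log2 values of the signal relative to the 75th percentile of the same array. They can be compared between arrays for 1 probe but not between probes.

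FOS was the member that varied most. On the accession probe, its level over the Sd segments was lowest in pig 7 at -0.68, had a median of 0.31 and was highest in pig 1 at 2.16. This is a 7.16-fold range between animals that received the same control. The SD of 0.98 (n = 7) was at percentile 94.9 of the SDs of 2400 genes, whose median was 0.39. On the other FOS probe the Sd levels ran from 2.63 in pig 2 over a median of 3.76 to 5.40 in pig 1, with an SD of 0.87 at percentile 92.8. Both probes put pig 1 highest and pigs 2 and 7 lowest.

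The spread of FOS in the control segments was also taken without its extreme pigs. Without pig 1 the SD of the accession probe was 0.63, and over the 5 Sd arrays of the first scan session it was 0.86. Over the 4 Sd arrays that remain without pig 1 and without the other session, the SD was 0.39, at percentile 44.6 of all genes. These 4 arrays leave out the highest and the 2 lowest FOS levels, so the SD had to fall. The other genes did not lose their own extremes, so this percentile does not place FOS among them. The 2 Sd arrays of the other session were both below the other 5 for 8.25% of the 2400 genes and both above them for 1.75%. FOS on both probes and JUN were among the genes that were lower. The part of slide and scan in these low values was not tested. Pig 2 was low in FOS in its YOd segment too, at -0.77 on the accession probe, on a slide shared with other pigs, whereas the WOd array of pig 7, also on a shared slide, read 0.82.

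**Figure D1:**
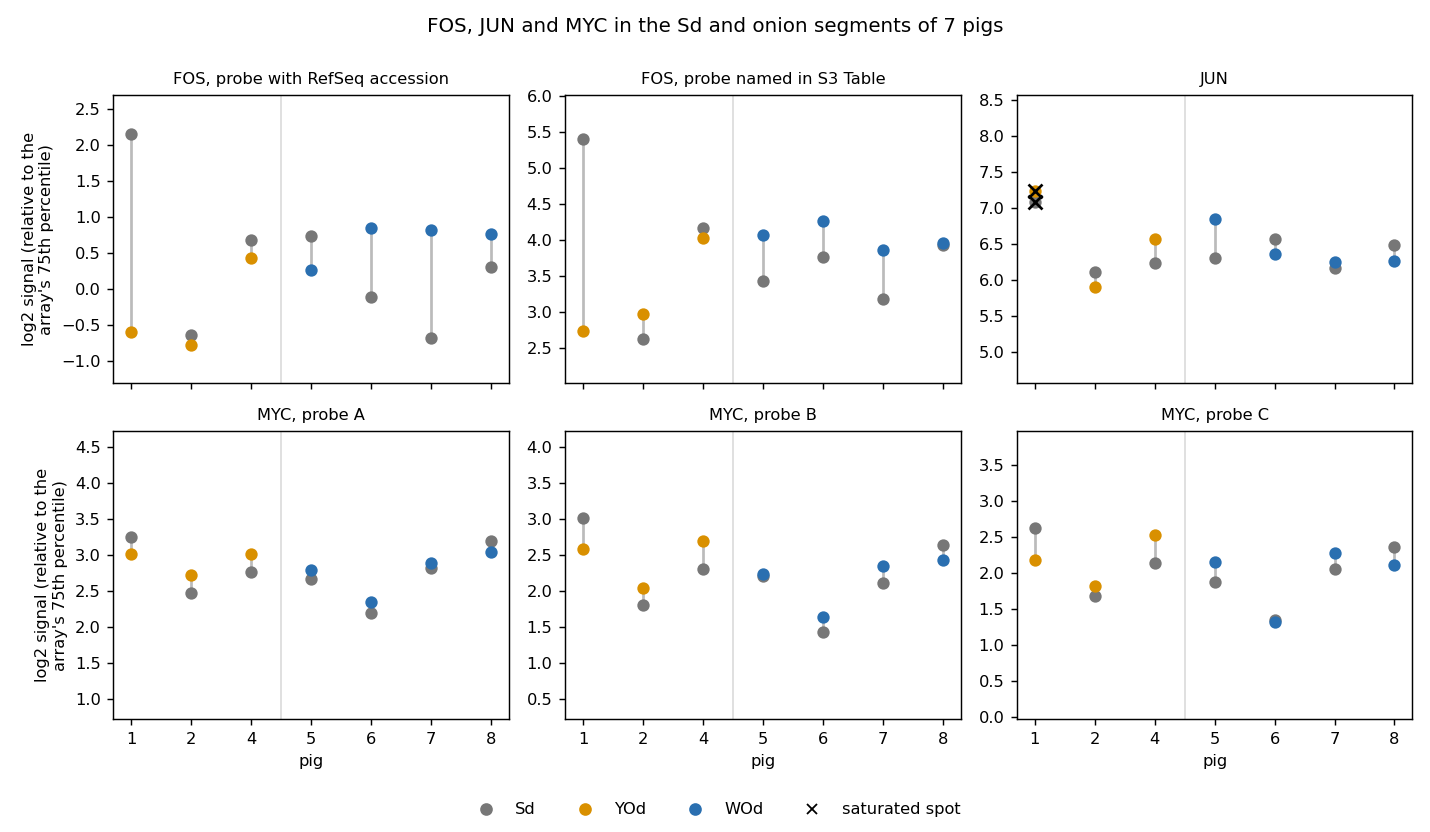
Level of each FOS, JUN and MYC probe (vertical axis, log2 signal relative to the 75th percentile of the array, all panels spanning 4 log2 units) in the Sd segment (grey) and the YOd (orange) or WOd (blue) segment of each pig (horizontal axis), joined by a line. Probes A, B and C of MYC are A_72_P165831, A_72_P557580 and A_72_P592239, and crosses mark saturated spots. In pig 1 both FOS probes fall by more than 2.6 log2 units from the Sd to the YOd segment. The lines of JUN and MYC are short in every pig, but that of JUN in pig 1 joins saturated spots and measures no ratio.

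With YOd, the FOS level on the accession probe in pigs 1, 2 and 4 was -0.59, -0.77 and 0.43. In the Sd segments of the same pigs it was 2.16, -0.63 and 0.68. The YOd segment was thus the lower in all 3 pigs, but in pigs 2 and 4 by only 0.14 and 0.25 on the log2 scale. In pig 1 the processed signal was 2012 in the Sd segment and 264 in the YOd segment, and after scaling the Sd segment was 6.72-fold higher. Of the 2400 genes, 0.0833% had a log2 ratio as low or lower in that pig, and 3.75% were more than 1.5-fold lower. The other FOS probe gave 6.32-fold in pig 1, and 2 more probes that carry the same Ensembl transcript, which the rule does not name, gave 6.28-fold and 7.23-fold. The 2 arrays of pig 1 lay on 1 slide and were scanned in 1 session.

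The mean log2 ratio of FOS for YOd over Sd was -1.05 (SE 0.49, 3 pigs, adjusted p = 0.386, limma with each pig as its own block). A gene was called affected when the unadjusted p was below 0.05 and the change over 1.5-fold, and FOS was not called. Of 2449 genes, 111 were called (4.53%), 88 higher and 23 lower, and none passed after adjustment in limma, while 274 had an unadjusted p under the threshold. Without pig 1 the ratio of FOS was -0.19. Without pig 2 it was -1.5 and FOS was called, as it was without scaling between the arrays, with -1.36. On the other probe the mean was -0.81 (SE 0.54), and 0.11 without pig 1.

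With WOd, the FOS level on the accession probe in pigs 5, 6, 7 and 8 was 0.27, 0.85, 0.82 and 0.77. The Sd segments of these pigs were at 0.74, -0.11, -0.68 and 0.31. FOS was higher with WOd than with Sd in 3 pigs, 1.95-fold in pig 6, 2.84-fold in pig 7 and 1.38-fold in pig 8, and 1.38-fold lower in pig 5. More than 1.5-fold higher were 8.04% of all genes in pig 6 and 10.4% in pig 7. The 4 WOd segments (SD 0.27) were closer together than their Sd segments (SD 0.60), and their ranges overlapped. The difference in spread was not tested. On the other probe the log2 ratios of the same pigs were 0.64, 0.50, 0.68 and 0.03. The 2 FOS probes therefore had opposite signs in pig 5, and also in pig 2, although they correlated with r = 0.907 over the 14 arrays.

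The mean log2 ratio of FOS for WOd over Sd was 0.62 (SE 0.31, 4 pigs, adjusted p = 0.999, limma), which was not called, while 29 of 2429 genes were (1.19%), 0.782% higher and 0.412% lower. It was 0.32 without pig 7, the pig whose Sd array lay on the separate slide, and 0.98 without pig 5, when it was called. On the other probe it was 0.46 (SE 0.17), a change of less than 1.5-fold.

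**Figure D2:**
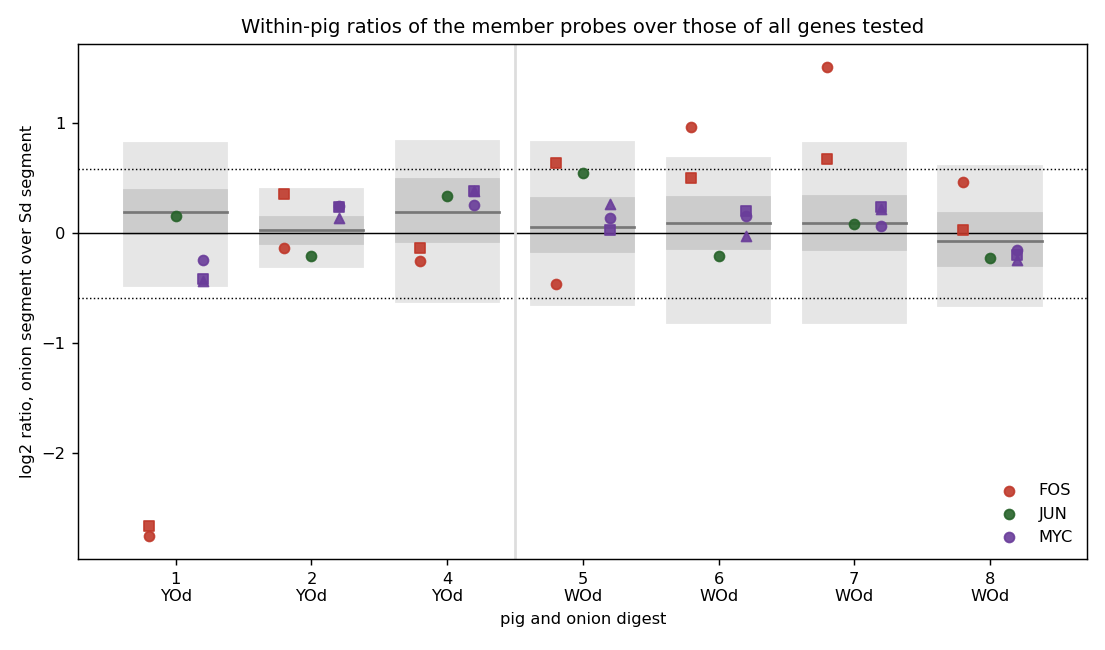
Within-pig log2 ratio of the onion over the Sd segment (vertical axis) for each pig and onion (horizontal axis). Grey boxes hold the middle 90% (light) and 50% (dark) of 2400 genes with their median as a line, points are the member probes (circles, squares and triangles are different probes of a gene), and dotted lines mark 1.5-fold. FOS lies far below the boxes in pig 1 and, on the accession probe (circle), above them in pigs 6 and 7. JUN and MYC stay inside them, where the point of JUN in pig 1 comes from saturated spots.

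The mean FOS ratio was below 0 for YOd and above 0 for WOd on both probes, neither being called, and on A_72_P596714 the YOd mean was above 0 without pig 1. The ratio for YOd minus that for WOd was -1.66 on the accession probe (SE 0.67, adjusted p = 0.852, limma). This was called on the unadjusted p, as were 87 of 2497 genes (3.48%), 2.24% higher and 1.24% lower. None of these genes passed after adjustment in limma, and 102 had an unadjusted p under the threshold. Without pig 1 it was -0.81 and no longer called, and the call was also lost without pig 6 (-1.55), pig 7 (-1.37) or pig 8 (-1.71). With the pairs on 1 slide only, without pigs 2 and 7, it was -1.82 and called. On the other probe it was -1.28 (SE 0.63), which was not called. Over the 7 pigs together the onion ratio of FOS had a mean of -0.10 on the accession probe (SD 1.37) and was above 0 in 3 pigs (exact sign-flip permutation test over pigs, two-sided p = 0.859, where the smallest possible is 0.0156). Its SD over pigs was at percentile 99.1 of 2400 genes, against a median of 0.33.

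JUN was a bright probe with little variation outside pig 1. Its Sd levels ran from 6.11 in pig 2 over a median of 6.31 to 7.08 in pig 1. The spot was saturated on both arrays of pig 1, where the raw median reading was 65528, the ceiling of the scanner, so the levels of JUN in pig 1 are lower bounds and its ratio in that pig was not measured. On the other 12 arrays the raw reading was 34136 to 61366, without saturation. The SD over the Sd segments was 0.33 (percentile 35.2 of 2400 genes), which is a lower bound as well, because pig 1 was highest. Without pig 1 the SD was 0.18 (percentile 6.71). This leaves out the highest JUN level but not the extremes of the other genes, so that percentile does not place JUN among them.

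With YOd the JUN level was 5.91 in pig 2 and 6.58 in pig 4, against 6.11 and 6.24 with Sd. With WOd it was 6.85, 6.37, 6.25 and 6.26 in pigs 5, 6, 7 and 8, against 6.31, 6.57, 6.17 and 6.49 with Sd. JUN was higher with onion in pigs 4, 5 and 7 and lower in pigs 2, 6 and 8, and no pig reached 1.5-fold. The largest ratio was 0.54 in pig 5. The mean ratio over pigs was 0.07 (SE 0.12, 95% interval -0.20 to 0.33, adjusted p = 0.841, limma), and 0.05 without pig 1. For WOd it was 0.05 (SE 0.18). For YOd it was 0.10 (SE 0.16) with the saturated spots of pig 1 at their readings and 0.07 (SE 0.24) from pigs 2 and 4 alone. The difference between the onions was 0.05 (95% interval -0.53 to 0.62) with pig 1 and 0.02 (SE 0.31) without it. The signs of these means depended on the scaling, as quantile normalization gave -0.19 for YOd.

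MYC was steady within a pig and differed between pigs. On A_72_P165831 its Sd levels were lowest in pig 6 at 2.19, had a median of 2.77 and were highest in pig 1 at 3.25, a 2.09-fold range. The SD of 0.38 was at percentile 46.3 of all genes. The within-pig ratios were -0.24, 0.24 and 0.25 in pigs 1, 2 and 4 with YOd, and 0.14, 0.15, 0.07 and -0.16 in pigs 5, 6, 7 and 8 with WOd. Their SD of 0.19 was at percentile 8.08 of 2400 genes. The other MYC probes gave SDs of 0.28 and 0.30, at percentiles 37.5 and 40.04, and correlated with A_72_P165831 with r = 0.964 and r = 0.939 over the 14 arrays.

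The mean ratio of MYC over the 7 pigs was 0.07 (SE 0.10, 95% interval -0.16 to 0.29, adjusted p = 0.815, limma), with 5 of 7 pigs above 0 (exact sign-flip permutation test, two-sided p = 0.391). For YOd it was 0.09 (SE 0.16), for WOd 0.05 (SE 0.14), and the difference between the onions was 0.03 (95% interval -0.44 to 0.51). None of the 3 members was called in the 7 pigs together, where 30 of 2400 genes were (1.25%). Without scaling between arrays the MYC ratio was -0.08, while the median ratio of all genes moved from 0.09 to -0.06.

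**Figure D3:**
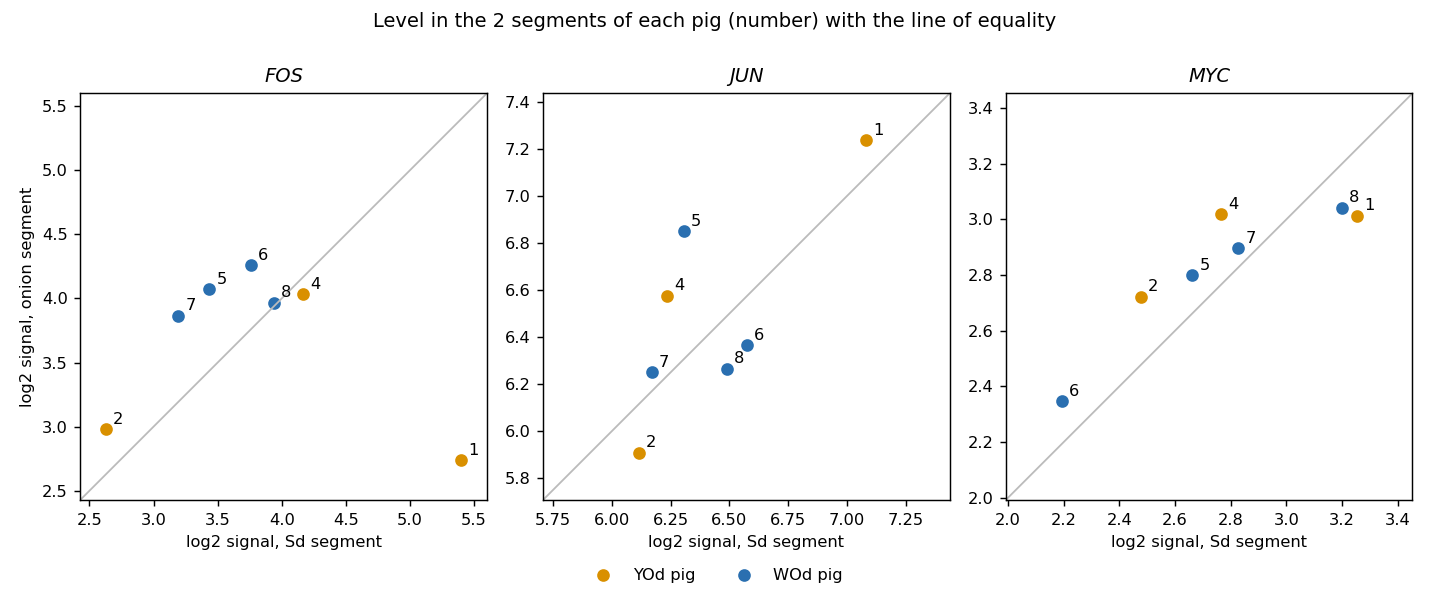
Level in the onion segment (vertical axis) against the level in the Sd segment of the same pig (horizontal axis), both as log2 signal relative to the 75th percentile of the array, for FOS (A_72_P596714), JUN and MYC (A_72_P165831). Numbers are pigs, orange marks YOd pigs and blue WOd pigs, and the line marks equal levels. MYC follows the line with r = 0.892, and FOS of pig 1 lies far below it.

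The level of MYC in the Sd segment and that in the onion segment of a pig were correlated (Pearson r = 0.892, exact permutation p = 0.00179, adjusted p = 0.0161 over 9 relations, Spearman rho = 0.821 with exact permutation p = 0.0341 and adjusted p = 0.307, n = 7). Without pigs 1 and 6, which lay farthest from the median, r was 0.843. These values are from A_72_P165831. Over the 7 pigs r was 0.850 on A_72_P557580 and 0.739 on A_72_P592239. The median r over 2400 genes was 0.662, and the 2 segments share the animal. For JUN r was 0.728 (exact permutation p = 0.0641, adjusted p = 0.192, rho = 0.714 with p = 0.0881), and 0.241 without pig 1, where JUN was saturated. For FOS on the accession probe r was -0.338 (exact permutation p = 0.449, adjusted p = 0.515, rho = -0.393 with p = 0.396), and 0.227 without pig 1. On A_72_P596714 it was -0.256, and 0.805 without pig 1, as a description. This relation was added after the values were seen, as was the accession probe in the 9 relations.

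FOS and JUN were compared over the Sd segments because they act as a dimer. On the accession probe of FOS their levels had r = 0.802 (exact permutation p = 0.0339, adjusted p = 0.153, rho = 0.643 with p = 0.139, n = 7). Without pigs 1 and 7, the farthest in FOS, r was 0.145, so the relation rests on those pigs, and JUN was saturated in pig 1. Over the 5 Sd arrays of the first scan session, pig 1 included, r was 0.685, too few arrays for a test. On A_72_P596714 r over the 7 Sd segments was 0.883. FOS and MYC had r = 0.589 (adjusted p = 0.359), JUN and MYC r = 0.461 (adjusted p = 0.464), both by exact permutation. Of the within-pig ratios, those of FOS on the accession probe and MYC had r = 0.457 (exact permutation p = 0.310, adjusted p = 0.464), with rho = 0.107, and r was -0.383 without pig 1. The ratios of FOS and JUN had r = -0.351, and -0.478 over the 6 pigs in which JUN was measured (exact permutation p = 0.321). Those of JUN and MYC had r = 0.143, and 0.324 over the same 6 pigs.

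Genes that followed a member over the 14 arrays were ranked as a description. Closest to FOS (A_72_P596714) were HSP70.2, a heat shock protein induced by stress (r = 0.677), AGPAT4, PDE6C, PRPF3 and ATM, where the 95th percentile of all genes was 0.408. Closest to JUN were RARRES2, which encodes chemerin (r = 0.944), PSMC5, TBCB, PRPS2 and AQP10, where the 95th percentile was 0.729. The 14 arrays include both arrays of pig 1, on which JUN was saturated. Closest to MYC were LEAP2, an antimicrobial peptide of liver and gut (r = 0.906), CHUK, ALG5, ENO3 and SUCLG1, where the 95th percentile was 0.763. Arrays of a pig share the animal, and scaling is shared by all genes.

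Of 24 listed AP-1 family genes, 4 could be named, FOS, JUN, ATF4 and CREB3. With FOS on A_72_P596714 none was called in any comparison, whereas on the accession probe FOS was called in YOd minus WOd. ATF4, the effector of the integrated stress response, had a mean onion ratio of 0.19 (SE 0.11) and CREB3 of 0.26 (SE 0.12). The median of the list was 0.13 against 0.09 for all genes. The other FOS and JUN family members were not analysed here.

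Of 52 other immediate early genes, 25 could be named and 23 were tested over the 7 pigs. KLF10, a zinc finger repressor induced by TGF beta, was called with YOd (0.60, SE 0.23), with WOd (0.62, SE 0.14) and over all pigs (0.61, SE 0.13, adjusted p = 0.610, limma), being higher in 6 of 7 pigs. These comparisons share arrays. It was the 1 gene called of 23 tested with YOd, of 24 with WOd and of 23 over all pigs, where 4.53%, 1.19% and 1.25% of all genes were called. The cytokine IL6 had a mean of 0.47 (SE 0.18) but was at the floor on 6 arrays, and the growth factor HBEGF had 0.32 (SE 0.18). EGR2 was at the floor on all arrays. The median of the list was 0.04, against 0.09 for all genes.

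In pig 1, where FOS was 6.72-fold lower with YOd, 3 of the 23 genes were more than 1.5-fold lower as well, against 3.75% of all genes. These genes, picked for their values, were BTG2, an inhibitor of proliferation, with -1.88, the chemokine CXCL8 with -0.79 and the small GTPase RHOB with -0.68. A further 3 were more than 1.5-fold higher (11.5% of all genes), IL6 with 1.48, KLF2 with 0.86 and KLF10 with 0.85. The median of the list in pig 1 was -0.10, against 0.19 for all genes. BTG2 had, like FOS, a large spread over the Sd segments (SD 1.00) and was higher with WOd in pig 7 (1.01), but it was lower in pig 6 (-0.53). In pig 1 the summed signal of 6 enteroendocrine markers was higher with YOd by 0.90, that of 3 endothelial markers by 0.60, that of 9 lymphocyte markers by 0.44, and that of the other 5 lists with named genes by 0.06 to 0.24 on the log2 scale. Of the named markers only PAX6, an enteroendocrine marker, was at the floor on all arrays, and none of 6 red blood cell markers could be named. Their part in the FOS value was not tested.

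**Figure D4:**
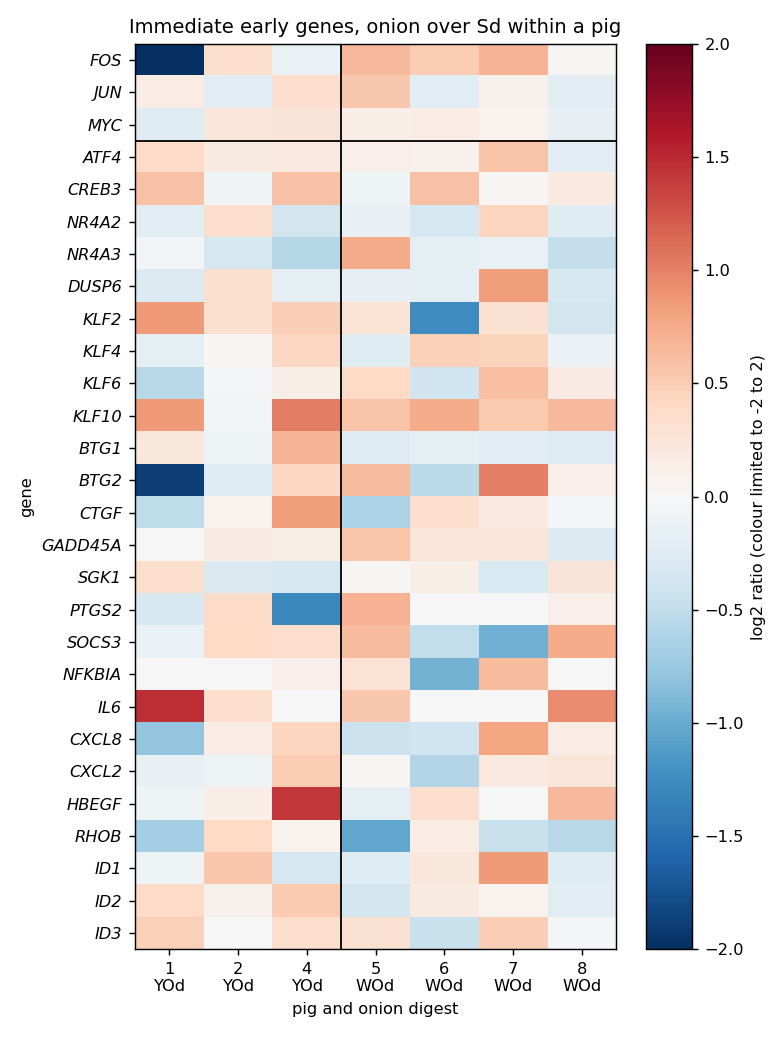
Within-pig log2 ratio of the onion over the Sd segment (colour, limited to -2 to 2) for FOS (A_72_P596714), JUN, MYC and the other AP-1 and immediate early genes tested over all pigs (rows), by pig and onion (columns). The column of pig 1 holds the lowest values, for FOS (-2.66) and BTG2 (-1.88), and KLF10 is higher with onion in every pig but pig 2.

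**Figure D5:**
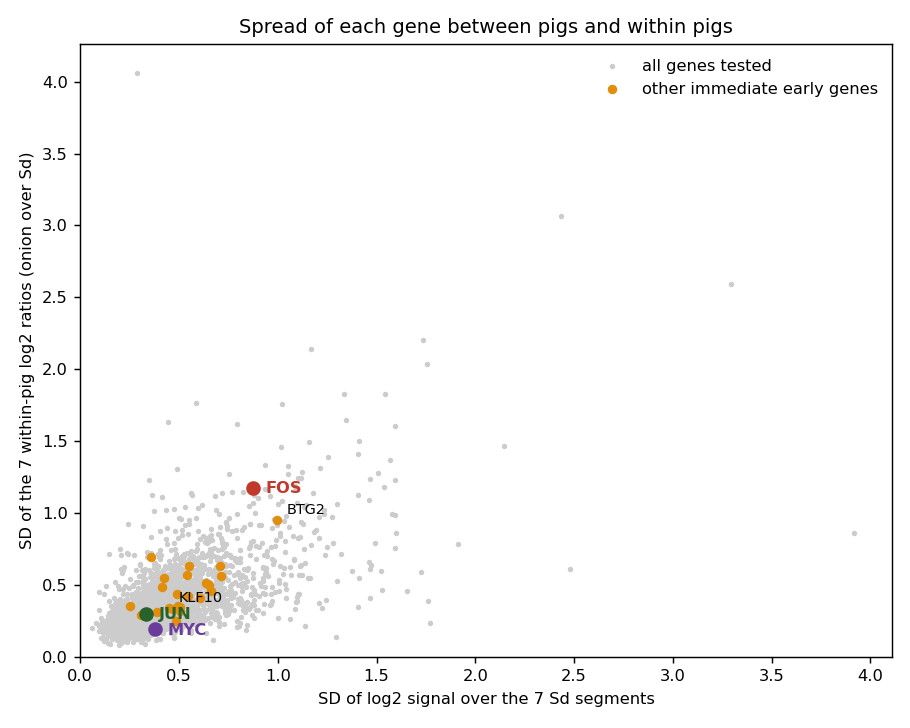
SD of the log2 signal over the 7 Sd segments (horizontal axis) against the SD of the 7 within-pig log2 ratios (vertical axis) for 2400 genes (grey), other immediate early genes (orange) and the members. FOS (A_72_P596714) is at 0.87 and 1.18, BTG2 at 1.00 and 0.95, and JUN and MYC are among the bulk of the genes. The values of JUN include the saturated spots of pig 1.

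Of 36 listed genes of the MAP kinase cascades and other signals that switch on FOS and JUN, 8 could be named. MAPK12, a p38 kinase, was called higher with WOd (0.65, SE 0.21) and lower in YOd minus WOd (-0.77), as 1 of 8 tested, beside 0.782% of all genes called higher with WOd and 1.24% lower in the difference. STAT3 had a mean onion ratio of 0.21 (SE 0.10) and CAMK2D of -0.15 (SE 0.11). Of 29 WNT and crypt genes that act upstream of MYC, 6 could be named and 5 were tested. LEF1, a transcription factor of the WNT pathway, was called higher with YOd (1.13, SE 0.35) and lower with WOd (-0.78, SE 0.30), with a difference of 1.90. It was the 1 gene called of 5, beside 3.59% of all genes called higher with YOd, 0.412% lower with WOd and 2.24% higher in the difference. The log2 ratio of LEF1 was 2.29, 0.64 and 0.45 in pigs 1, 2 and 4 and -0.37, -1.92, -0.79 and -0.03 in pigs 5, 6, 7 and 8. Averaged over its probes, LEF1 was 0.52 for YOd and -0.58 for WOd, neither called, and 1.11 for the difference, which was called. The probe used had a mean log2 signal of -2.57, above the floor of -4.43 on all arrays. The summed level of 9 lymphocyte markers of 10 listed, none of them at the floor on all arrays, had ratios of 0.44, -0.03 and 0.69 in the YOd pigs and of -0.07, -1.06, 0.47 and -0.44 in the WOd pigs. It ranged from 3.38 to 16.1 over Sd, 8.6 to 9.53 over YOd and 3.29 to 15.3 over WOd segments. Of these markers, CD3D of T cells, picked for its call, was called in YOd minus WOd as well (0.69), beside 2.24% of all genes called higher. The call was lost without scaling (0.41), with the authors' values (0.42) and with normexp (0.49). It was also lost with the 75th percentile over probes detected on all arrays (0.63), without the pig block and without pig 4, 6 or 7. The part of lymphocytes in the LEF1 values was not tested. Beta-catenin (CTNNB1) had a mean ratio of 0.15 (SE 0.09), ASCL2, a factor of crypt stem cells, of 0.15 (SE 0.16), and SOX9 of -0.15 (SE 0.16).

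Target genes were examined last. Of 37 MYC targets 14 could be named and tested, and none was called in any comparison. Their median onion ratio was 0.13, against 0.09 for all genes, with CCND2 at 0.21 (SE 0.14), the mitochondrial chaperonin HSPE1 at 0.18 (SE 0.10) and the translation factor EIF4A1 at 0.16 (SE 0.10). No other gene of a list of 25 partners and regulators of MYC could be named. Of 29 AP-1 targets 18 could be named. With YOd 4 of 16 tested were called higher (3.59% of all genes were) and 0 lower, namely MMP9, a gelatinase (0.73), CCL2, a monocyte chemokine (0.66), and NQO1 (0.90) and HMOX1 (0.69), which are also known as NRF2 targets. With WOd, MMP3 (0.77), a stromelysin, was called higher and EDN1 (-0.69), the endothelin precursor, lower, of 17 tested, beside 0.782% of all genes called higher and 0.412% lower. Over the 7 pigs MMP3 (0.62) and MMP9 (0.61) were called of 16 tested, where 0.958% of all genes were called higher. CCL2 and EDN1 were also called higher in YOd minus WOd, by 1.13 and 0.90, of 16 tested, beside 2.24% of all genes. The summed level of 6 myeloid markers of 9 listed was higher with YOd by 0.23, 0.17 and 0.50 in pigs 1, 2 and 4, and its part in these values was not tested.

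The calls of list genes rested on few pigs. None changed sign in any alternative. Of those for YOd, KLF10 (0.48 and 0.39), MMP9 (0.69 and 0.42), NQO1 (0.68 and 0.75) and CCL2 (0.40 and 0.66) were lost without pig 1 and without pig 4. HMOX1 was lost without pig 4 (0.35) and LEF1 without pig 1 (0.54). Of those for WOd, all were lost without pig 6, namely KLF10 (0.58), MAPK12 (0.53), MMP3 (0.62), EDN1 (-0.68) and LEF1 (-0.40), MMP3 was also lost without pig 7 (0.48), MAPK12 without pig 7 (0.52) or pig 8 (0.67) and EDN1 without pig 5 (-0.47) or pig 8 (-0.62). Over the 7 pigs, KLF10 and MMP9 were lost without pig 1 (0.57 and 0.58) or pig 4 (0.54 and 0.49), because they fell below 1.5-fold, and MMP3 without pig 6 (0.52) or pig 7 (0.45). Of the differences between the onions, CCL2 and LEF1 remained called without each pig in turn, MAPK12 only without pig 2 or pig 5 and EDN1 only without pig 1 or pig 7. None of the 6 list gene calls for YOd remained without scaling between the arrays, without the filter on dim genes or with the authors' processed values. The first of these settings moved the median YOd ratio of all genes from 0.14 to -0.16 and the calls from 88 higher and 23 lower to 7 higher and 94 lower. With quantile normalization the YOd calls of KLF10 (0.51), MMP9 (0.66), HMOX1 (0.59) and LEF1 (1.10) were lost, while those of CCL2 and NQO1 remained. The list gene calls for WOd all remained without scaling but were all lost with normexp background correction. Only KLF10 of them remained without the filter on dim genes and with the authors' processed values. The calls of KLF10, MMP3 and MMP9 over the 7 pigs were lost without scaling and remained in those 2 settings. KLF10 was also lost with quantile normalization (0.568) and with the 75th percentile over probes detected on all arrays (0.581). MMP9 was lost with that percentile (0.580) and with normexp (0.570), and MMP3 with normexp (0.477) and within slides (0.548). Without the pig block, MMP3 and MMP9 were lost and KLF10 remained. MAPK12, EDN1 and LEF1 had low mean log2 signals of -2.57, -3.17 and -2.57, where the floor was -4.43.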

How the data were processed

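RNA from mucosal scrapings of 14 SISP segments was measured on 1-colour Agilent pig arrays. The authors deposited the scanner output of Feature Extraction 10.7.3.1, with the processed signal intensity and the median intensity of each spot, and a table of processed log2 values of the same arrays, centred per probe, which served as an alternative. The genome build was not given in the sources used here. Outlier spots were removed and replicate spots averaged. Intensities were scaled to each array's 75th percentile, floored at the 40th percentile of all arrays together and log2-transformed. A gene was represented by its brightest probe on average. RefSeq accessions were named through the Sscrofa11.1 reference. Comparisons were fitted on all named genes with limma 3.58.1 (R 4.3.3), blocking on the pig because both segments came from 1 animal. Exact permutation tests were run in Python 3.11.15. The fits were tested on simulated data. The number of arrays limits the precision.

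Genes named are the members, list genes past both thresholds in YOd/Sd, WOd/Sd or onion/Sd, the 3 largest mean ratios of each list and the 5 genes most like each member. The members and lists were chosen with earlier results of these data known. The alternatives covered scaling, background correction (normexp on the median intensity), floor, filter, probe, processed values, pig block, slide and each pig left out.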

Additional observations from a re-analysis of the deposited data

Results flagged for a closer look

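In the 18 groups of levels and ratios examined for a sample far from the others, 3 were flagged, and chance flags about 1 in 20 groups. The within-pig log2 ratio of FOS on A_72_P596714 was lowest in pig 1 at -2.66, far from the other 6 pigs, which lay between -0.13 and 0.68. The FOS level on A_72_P441284 was lowest of the 4 WOd segments in pig 5 at 0.27, against 0.77 to 0.85 in the other pigs. The MYC level on A_72_P592239 was lowest of the 4 WOd segments in pig 6 at 1.31, where the Sd segment of the same pig was also the lowest of its group, at 1.34. The difference between the onion effects on FOS, -1.66 on A_72_P441284, had a raw p of 0.0362 in limma (adjusted p = 0.852).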

How the results depend on the processing

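The FOS ratios kept their direction in all alternatives except without pig 1, when FOS on A_72_P596714 was 0.11 for YOd and 0.34 over the remaining pigs, and 0.35 on the accession probe. JUN and MYC ratios were near 0 and changed sign with small changes. With quantile normalization JUN was -0.19 for YOd, -0.079 over all pigs and -0.19 for YOd minus WOd, and MYC -0.045 for the last. Without scaling, JUN was -0.21, -0.082 and -0.23, MYC -0.22, -0.084 and -0.24, and FOS on A_72_P596714 -1.55 for YOd minus WOd. For that difference, the percentile over probes detected everywhere gave -0.016 for JUN and -0.028 for MYC, and the authors' values -0.023 and -0.035. Within-slide pairs gave a difference of -1.79 for FOS on A_72_P596714 and -0.038 for MYC. The mean over probes gave -1.47 for FOS, and the accession probe -1.66. For YOd, within-slide pairs gave -1.40 for FOS on A_72_P596714. On the accession probe, the call of -1.66 was lost with quantile normalization (p = 0.0544), a floor at the 20th percentile (p = 0.0509), no filter (p = 0.0917) and the authors' values (p = 0.0798).

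Genes called for YOd, WOd, all pigs and YOd minus WOd were 111, 29, 30 and 87. They were 65, 13, 19 and 49 with normexp and 7, 11, 15 and 38 with the authors' values. Within slides they were 327, 87, 78 and 194, and without the replicate block 20, 10, 10 and 4, where no other call of a member changed. Without filter they were 20, 17 and 47 for YOd, WOd and the difference, with the lower floor 53 and 47 for WOd and all pigs, with quantile normalization 63 for YOd and without scaling 16 for all pigs. When every probe was counted, the calls were of probes, 1303 of 26267, 327 of 25677, 216 of 25464 and 1570 of 27685. Those for YOd were 649 higher and 654 lower. Leaving out a pig gave 56 to 327, 44 to 87, 18 to 49 and 43 to 153 genes.

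Leaving out each pig, FOS on A_72_P596714 was -1.40 to 0.11 for YOd, 0.39 to 0.61 for WOd, -0.21 to 0.34 over all pigs and -1.86 to -0.35 for YOd minus WOd. JUN was -0.026 to 0.25, -0.12 to 0.14, -0.011 to 0.12 and -0.075 to 0.21, and MYC 0.0025 to 0.25, 0.02 to 0.12, 0.035 to 0.12 and -0.049 to 0.20. On the accession probe FOS was -1.5 to -0.19 for YOd, 0.32 to 0.98 for WOd, -0.36 to 0.35 over all pigs and -2.12 to -0.81 for YOd minus WOd. On A_72_P596714 FOS was called without pig 8 for WOd (0.61) and without pig 2 for YOd. The SDs over Sd segments were 0.56 to 0.96 for FOS on A_72_P596714, 0.18 to 0.36 for JUN and 0.30 to 0.41 for MYC.

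Of the correlations, with FOS on A_72_P596714 as a description, FOS with JUN ratios had r = 0.062 with quantile normalization and 0.20 without scaling, JUN with MYC ratios -0.24 with quantile normalization, -0.041 with the other percentile and -0.080 with normexp, and FOS with MYC ratios 0.78 without scaling and 0.70 with normexp. JUN in both segments had 0.79 with normexp and 0.77 with the authors' values. Leaving out a pig, r over Sd segments was 0.61 to 0.98 for FOS and JUN, 0.30 to 0.81 for FOS and MYC and -0.079 to 0.82 for JUN and MYC. For ratios it was -0.41 to 0.12, 0.075 to 0.83 and -0.096 to 0.37. Between segments it was -0.83 to 0.81 for FOS, 0.24 to 0.85 for JUN and 0.84 to 0.95 for MYC. The cause of these shifts was not tested. The FOS accession probe, also in the relations, and the relation between segments were added after the data were seen. Signal over background did not limit the members, but saturation limited JUN.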
